A study of Mus musculus with 4 samples.

Results

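Immunoglobulin heavy chain V segments are the germline gene segments, named Ighv in the mouse, from which the antigen-binding end of antibody heavy chains is built. The genes described here are the 113 whose symbol names a single Ighv gene in the array's annotation, out of 30701 genes measured, each represented by 1 probe set. The lungs of adult mice of matched age were measured whole, on 4 Affymetrix expression arrays. In the SCD group, 2 arrays carry the strain label SCD Tg and a protocol that speaks of sickle cell mice; in the WT group, 2 arrays carry the strain label C57/BL6. The transgene or allele of the SCD line, its genetic background, and the sex of the animals are not stated in the labels, so the sickle genotype and any difference in background strain cannot be told apart. RNA came from the whole organ, and no label says whether arrays come from separate animals, so p-values measure the spread between these arrays. In bulk tissue, a larger number of antibody-forming cells and more RNA per such cell cannot be told apart.

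A heavy chain V region is made in a developing B cell, which joins 1 V segment to a D and a J segment, so that each B cell clone carries its own V segment on RNA that continues into a constant region such as that of IgM or IgG. Resting B cells hold little of this RNA, while plasma cells, which secrete antibody, hold large amounts. The V segments are sorted into families by sequence likeness, and the first number in the symbol is the family. Ighv1, also called J558, is the largest family in the mouse and lies mostly at the end of the locus far from the constant genes, whereas Ighv5 and Ighv2 lie at the near end. RefSeq places the locus on chromosome 12 and lists 183 Ighv genes there. Of those, 4 more had a probe set under an older symbol, 9 were measured only on probe sets shared with other genes and 57 had no match in the annotation used here. The 113 genes fall into 15 families, with 61 in Ighv1, 9 in Ighv5, 8 each in Ighv2 and Ighv8, and 6 in Ighv3. V segments of 1 family are alike in sequence, so RNA of 1 segment may bind the probes of another; this was not tested, and neighbouring values are not independent.

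Many heavy chain V segments were higher in SCD lung, and nearly all of these belonged to Ighv1. Of the 113 genes, 29 rose in SCD lung and 0 fell at an adjusted p of 0.05 in limma, where 2.46% of all genes rose and 0.635% fell; 84 did not pass. At an unadjusted p under 0.05, 60 were higher and 4 lower, where 3262 of all 30701 genes were higher and 1864 lower. The SCD minus WT difference, on the log2 scale here and below, had a median of 0.66 over the 113 genes, with quartiles of 0.14 and 1.31, against a median of 0.002 over all genes. Both SCD arrays lay above both WT arrays for 71 genes and below both for 6, and the groups overlapped for 36; over all genes, 25.3% lay above and 22.5% below. The difference exceeded 1 for 39 of the 113 genes (34.5%), and for 1.73% of all genes. With SCD replicate 1 or SCD replicate 2 left out, the median difference over the 113 genes was 0.65 and 0.58. Such a fit leaves 1 array in the SCD group and takes its spread from the WT arrays, so its calls are not given.

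**Figure D1:**
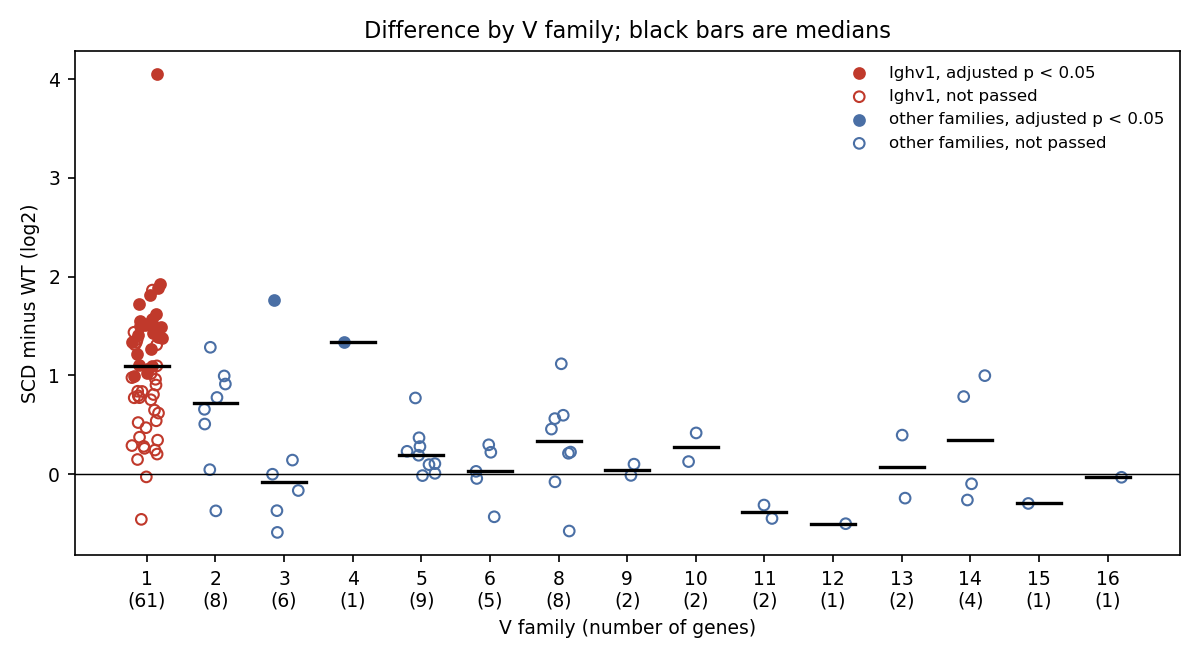
SCD minus WT difference (log2, vertical axis) of each Ighv gene by V family (horizontal axis, number of genes in brackets), with 2 arrays per group. Filled points passed an adjusted p of 0.05 in limma, open points did not, and black bars are family medians; 27 of the 29 filled points lie in Ighv1.

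The Ighv1 family held 27 of the 29 calls. Of its 61 genes, 27 rose (44.3%), 0 fell and 34 did not pass, against 2 of the 52 genes of other families (3.8%). The median difference was 1.10 in Ighv1 and 0.14 in the other families (1.03 and 0.29 without WT replicate 1). Both SCD arrays lay above both WT arrays for 54 of 61 Ighv1 genes (88.5%) and for 17 of 52 others (32.7%). The median of the Ighv1 probe sets was 7.25 and 7.28 on the SCD arrays, against 5.89 and 6.15 on the WT arrays. That of the other families was 6.38 and 6.29 on the SCD arrays, against 6.40 and 6.05 on the WT arrays. The Ighv1 median thus separated the groups, while that of the other families did not. The difference between the families was not tested, since genes of a family are not replicates.

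Ighv1-9 had the largest difference of the 113 genes. Its probe set read 11.35 and 11.45 in SCD lung, against 7.20 and 7.49 in WT lung, a difference of 4.05 ± 0.13 (SE, n = 2 arrays per group; 16.6-fold; limma adjusted p = 0.00233). The gap between the groups was many times the gap within either group, and the next largest difference was 1.93. That was Ighv1-53, with 10.59 and 10.24 in SCD lung, against 8.22 and 8.75 in WT lung (1.93 ± 0.22; adjusted p = 0.0181). Ighv1-76 read 7.89 and 7.74 in SCD lung, against 5.78 and 6.08 in WT lung (1.88 ± 0.14; adjusted p = 0.00781). Ighv1-53 lies at place 136 and Ighv1-76 at place 172 of RefSeq's 183 Ighv genes, counted from the constant genes. In each the lower SCD array stood above the higher WT array by more than 1.

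The brightest probe set of the group was that of Ighv1-2, which RefSeq types as a V segment pseudogene. It read 15.06 and 14.68 in SCD lung, against 12.97 and 13.13 in WT lung (1.82 ± 0.14; 3.53-fold; adjusted p = 0.00781). RNA of a pseudogene cannot give a heavy chain, and which RNA the probes of this set bind was not tested; values of different probe sets are not set against each other as amounts. Ighv1-55 read 10.19 and 10.21 in SCD lung, against 8.50 and 8.76 in WT lung (1.57 ± 0.12; adjusted p = 0.00781). Ighv1-62-1 read 9.74 and 9.78 in SCD lung, against 8.82 and 8.71 in WT lung (1.00 ± 0.10; adjusted p = 0.0118). For these bright segments the arrays of a group differed by 0.38 at most, less than the difference between groups.

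Among the other large increases, Ighv1-83 read 7.88 and 8.01 in SCD lung, against 5.88 and 6.56 in WT lung (1.73 ± 0.24). Ighv1-39 read 7.42 and 7.30 in SCD lung, against 5.60 and 5.88 in WT lung (1.62 ± 0.14). Ighv1-34 read 9.15 and 9.35 in SCD lung, against 7.55 and 7.86 in WT lung (1.55 ± 0.15). None of these had overlapping groups. Ighv1-72 (1.54 ± 0.15), Ighv1-70 (1.52 ± 0.23) and Ighv1-75 (1.51 ± 0.19) completed the 12 largest differences past the threshold together with Ighv3-4, described below. Ighv1-70 did not pass in limma when the variance had no intensity trend (adjusted p = 0.058) or when the SCD values were lowered by the exon control shift described below (adjusted p = 0.0544). Ighv1-11, named after its value was seen, had a larger difference than most of these at 1.86 ± 0.31 but did not pass (adjusted p = 0.0521), with 6.98 and 7.87 on the SCD arrays and 5.68 and 5.45 on the WT arrays.

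**Figure D2:**
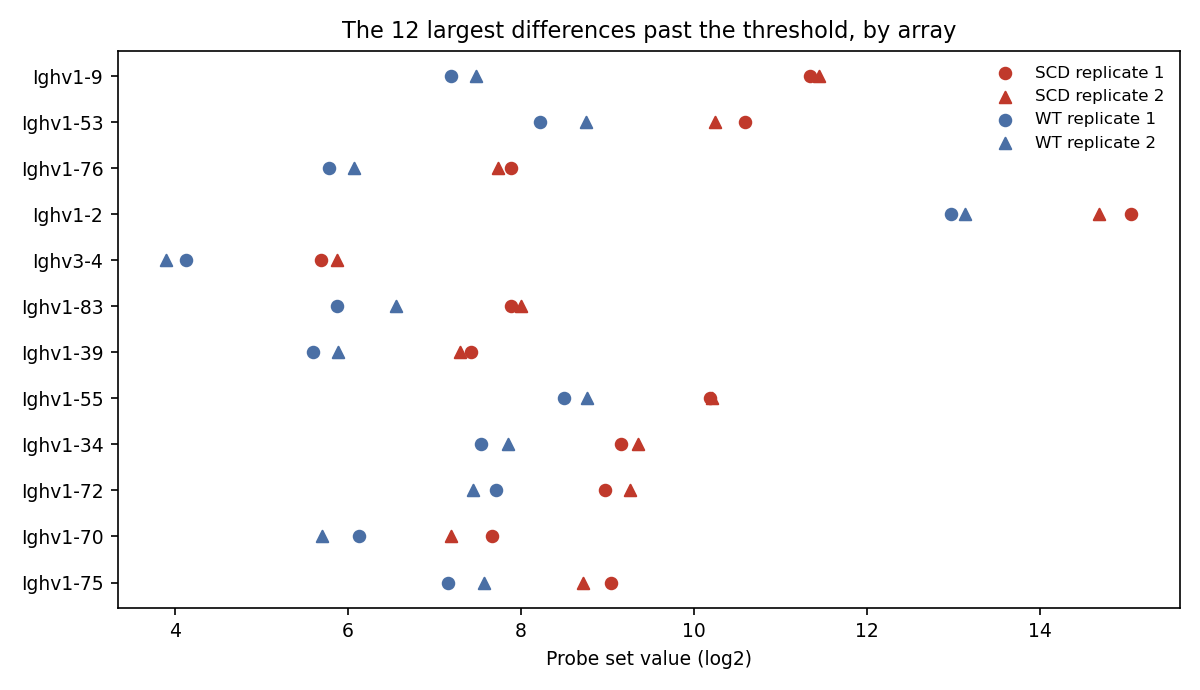
Probe set value (log2, horizontal axis) on each array for the 12 Ighv genes with the largest difference past the threshold, from largest at the top. Red marks are SCD arrays and blue marks WT arrays, circles replicate 1 and triangles replicate 2; both red marks lie to the right of both blue marks for each of the 12 genes.

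The values are also given by brightness, which is the mean over the 4 arrays and so includes the SCD values: a larger increase itself makes a gene brighter. With the Ighv1 genes split into 3 bins by their mean over the 4 arrays, 17 of 21 rose in the bright bin, 10 of 20 in the middle bin and 0 of 20 in the dim bin, where 11 were higher and 1 lower at an unadjusted p under 0.05. The median differences were 1.41, 1.34 and 0.50 in the same order. In the other families, the medians were 0.44, 0.10 and 0.14 in the bright, middle and dim bins, with 1 of 18, 0 of 17 and 1 of 17 genes rising. The limits of the bins differ between the 2 sets, and no difference between bins was tested. The WT mean lay below the median of the probe sets whose identifiers mark them as negative controls (6.48 on the WT arrays) for 64 of the 113 genes, 11 of the 29 that rose among them. Of the 44 genes above the negative-control median of the same array on all 4 arrays, 18 rose. The negative-control median lay above the median of all genes, which was 5.90 and 5.86 on the WT arrays, so most genes also read below it. The array's background (antigenomic) probe sets had a median of 3.32 on the WT arrays, and 0 of the 113 genes had a WT mean below it. Which level marks detection was not tested.

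A few Ighv1 segments stood apart from their family. Ighv1-63 was the only one with both SCD arrays below both WT arrays, at 5.34 and 5.31 in SCD lung, against 5.89 and 5.68 in WT lung, and it did not pass (-0.46 ± 0.13; adjusted p = 0.165). Ighv1-47, named after its value was seen, was the only other Ighv1 gene with a negative difference (-0.03 ± 0.21), with overlapping groups. Ighv1-69, among the 6 brightest probe sets, read 9.77 and 9.67 in SCD lung, against 8.28 and 9.21 in WT lung, and did not pass (0.98 ± 0.31; adjusted p = 0.206). Its WT arrays differed by 0.93, nearly as much as the groups. Ighv1-62-2 and Ighv1-71 had identical values on each array, so that they are 1 measurement under 2 names. These values were 5.20 and 6.66 in SCD lung, against 4.19 and 5.04 in WT lung (1.31 ± 0.54; adjusted p = 0.326).

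Outside Ighv1, Ighv3-4 and Ighv4-1 rose. Ighv3-4 read 5.69 and 5.88 in SCD lung, against 4.14 and 3.90 in WT lung (1.77 ± 0.15; adjusted p = 0.00824). It stood alone in its family: the median of the 6 Ighv3 genes was -0.08, and the brightest, Ighv3-6, read 8.98 and 8.99 in SCD lung, against 9.03 and 8.94 in WT lung. Both groups of Ighv3-4 lay below the negative-control median. Ighv4-1, the single measured member of its family, read 8.93 and 9.05 in SCD lung, against 7.94 and 7.36 in WT lung (1.33 ± 0.21; adjusted p = 0.0464). It did not pass without the intensity trend (adjusted p = 0.0661) or with that exon control shift removed (adjusted p = 0.0609).

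Ighv2 came closest to Ighv1 among the families of several genes. Its median difference was 0.72, and both SCD arrays lay above both WT arrays for 6 of its 8 genes, but 0 of 8 passed in limma, with 5 higher and 1 lower at an unadjusted p under 0.05. Its brightest member, Ighv2-9-1, read 10.19 and 9.45 in SCD lung, against 8.69 and 8.37 in WT lung (1.29 ± 0.27; adjusted p = 0.092). The groups did not overlap, but the SCD arrays differed by 0.74.

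The remaining families lay nearer to 0, and 0 of their 37 genes passed in limma, with 4 higher and 1 lower at an unadjusted p under 0.05. The median difference was 0.34 in the 8 Ighv8 genes and also in the 4 Ighv14 genes, 0.19 in the 9 Ighv5 genes and 0.03 in the 5 Ighv6 genes. Their brightest members included Ighv14-2 at 0.79 ± 0.17 (adjusted p = 0.0962), Ighv8-12 at 0.46 ± 0.41, Ighv5-4 at 0.11 ± 0.20 and Ighv6-3 at 0.03 ± 0.16. Ighv10-1, of a family known for DNA-binding antibodies in mice, read 9.02 and 9.41 in SCD lung, against 9.25 and 8.92 in WT lung (0.13 ± 0.18). Its groups overlapped, as did those of Ighv9-4 (-0.01 ± 0.33), Ighv13-2 (-0.24 ± 0.16) and Ighv16-1 (-0.03 ± 0.27). The array's positive-control (exon) probe sets read 0.20 higher on the SCD arrays, a shift of the size of these values, while the negative controls lay at -0.18, with medians of 6.29 in SCD and 6.48 in WT. Taking the shift of the positive controls off the SCD values moved the median of all genes to -0.19, of the families other than Ighv1 to -0.06 and of Ighv1 to 0.90.

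Negative differences were found for 21 of the 113 genes, and 0 of these passed in limma, with 4 at an unadjusted p under 0.05. The lowest were those of Ighv3-3 (-0.59 ± 0.22; adjusted p = 0.287), Ighv8-2 (-0.58 ± 0.29) and Ighv12-3 (-0.50 ± 0.16; adjusted p = 0.204). Ighv12-3 is a segment used in the mouse by B-1 cells that bind phosphatidylcholine. It read 6.91 and 6.63 in SCD lung, against 7.14 and 7.40 in WT lung. The Ighv11 segments, of which Ighv11-2 is used by B-1 cells of the same specificity, lay at -0.45 ± 0.21 (Ighv11-1) and -0.31 ± 0.24 (Ighv11-2). Ighv15-2 lay at -0.30 ± 0.16. Ighv8-2, Ighv11-1, Ighv11-2 and Ighv15-2 read below the negative-control median on each array. Both SCD arrays lay below both WT arrays for Ighv3-3, Ighv12-3, Ighv11-1 and Ighv15-2, while the groups overlapped for Ighv8-2 and Ighv11-2.

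Family and place in the locus largely go together. Counted along RefSeq's 183 Ighv genes from the constant genes outward, the first Ighv1 gene is Ighv1-2 at place 74. Before it lay 42 measured genes, of which 2 rose, with a median difference of 0.10. From it on lay the 61 Ighv1 genes and 10 genes of other families, of which 0 rose in limma (1 at an unadjusted p under 0.05), with a median of 0.32. Among the 10 were 7 Ighv8 segments, with a median of 0.46. Each of these 7 lies between measured Ighv1 genes, and 4 of the 7 had a smaller difference than the nearest Ighv1 gene on either side. Ighv8-13, for example, lay at -0.08 between Ighv1-72 at 1.54 and Ighv1-73 at 1.49. Ighv8-5 was an exception, at 1.12 between Ighv1-49 at 0.26 and Ighv1-50 at 1.34. Within Ighv1, the medians were 0.99, 1.10 and 1.31 in the 20 genes nearest to the constant genes, the next 20 and the farthest 21. In the same order, 9 of 20, 10 of 20 and 8 of 21 genes rose.

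**Figure D3:**
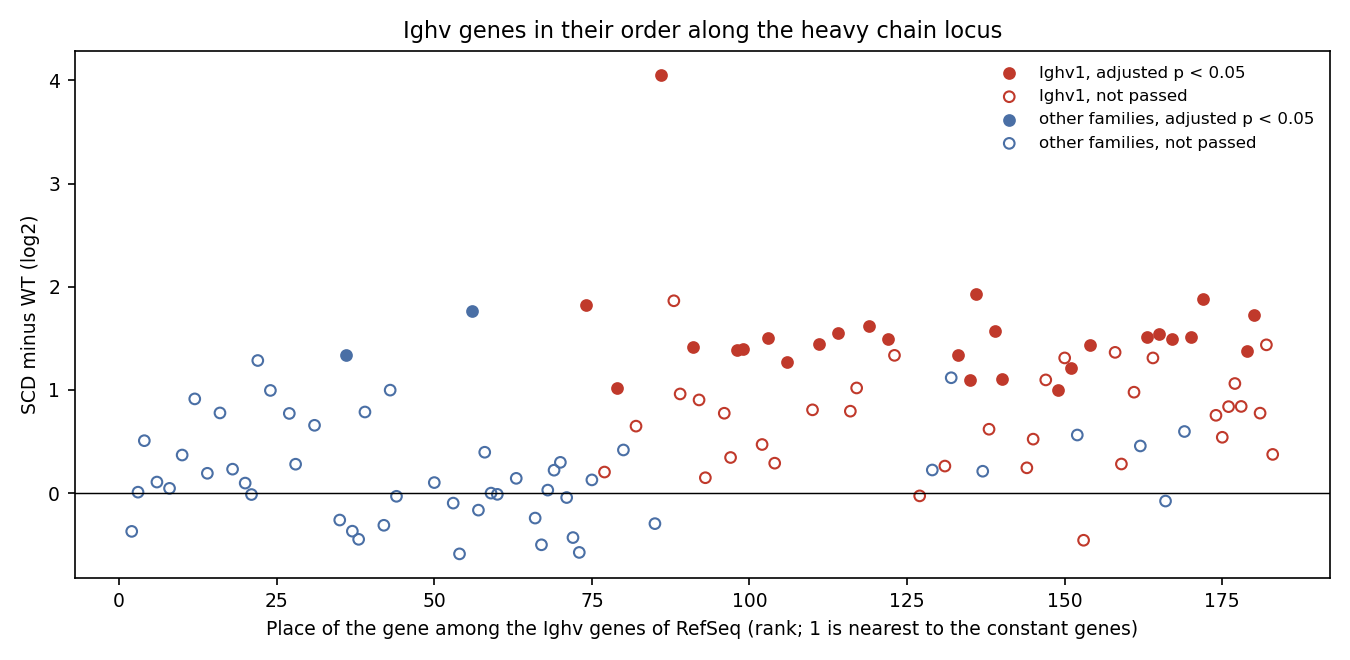
SCD minus WT difference (log2, vertical axis) of the 113 Ighv genes against their place among RefSeq's Ighv genes (horizontal axis, a rank counted from the constant genes). Red points are Ighv1 and blue points other families, filled where they passed an adjusted p of 0.05; Ighv1-9 stands highest, at 4.05, and blue points among the Ighv1 genes are all open.

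Heavy chain V segments also differed more between arrays of the same group than most genes did. The median gap between the 2 SCD arrays was 0.285 over the 113 genes, against 0.12 over all genes, and that between the 2 WT arrays was 0.32, against 0.16. Among the 10433 genes between the members' quartiles of mean value, these medians were 0.125 and 0.16. The limma SE draws on the spread of genes of like value, so it may be too small for the more variable Ighv genes. This was not tested. Gaps above 1 occurred between the SCD arrays for 6 of the 113 genes (5.31%; 0.365% of all genes) and between the WT arrays for 4 (3.54%; 0.948% of all genes). The largest was that of Ighv1-77, which read 6.57 and 8.20 in SCD lung, against 5.998 and 7.26 in WT lung. Ighv6-7 read 4.41 and 5.89 in SCD lung, against 5.99 and 5.18 in WT lung, and Ighv1-67 read 3.87 and 5.23 in SCD lung, against 3.81 and 4.73 in WT lung. In these 3 genes the replicates of a group differed by more than the group means did. Across the 113 genes the Pearson correlation was 0.96 between the SCD arrays and 0.95 between the WT arrays, and between groups it ran from 0.86 to 0.93. These describe the arrays over genes that share them.

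The WT arrays differed from each other by family too. WT replicate 1 read higher than WT replicate 2 for 8 of 8 Ighv2 genes, 6 of 6 Ighv3 genes and 8 of 9 Ighv5 genes, but for 18 of 61 Ighv1 genes. The median of replicate 2 minus replicate 1 in WT lung was 0.27 in Ighv1, -0.29 in Ighv2, -0.61 in Ighv3 and -0.48 in Ighv5. In SCD lung it was 0.03 in Ighv1, -0.21 in Ighv2, -0.07 in Ighv3 and 0.27 in Ighv5. The Ighv1 median minus the median of the other families was 0.87 and 0.99 on the SCD arrays, against -0.51 and 0.11 on the WT arrays. This quantity did not overlap between the groups, and its gap of 0.62 between the WT arrays was somewhat smaller than the 0.76 that separated the groups at their nearest. Leaving out WT replicate 1 gave a median difference of 1.03 in Ighv1 and 0.29 in the other families. Leaving out WT replicate 2 gave 1.25 and 0.10.

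**Figure D4:**
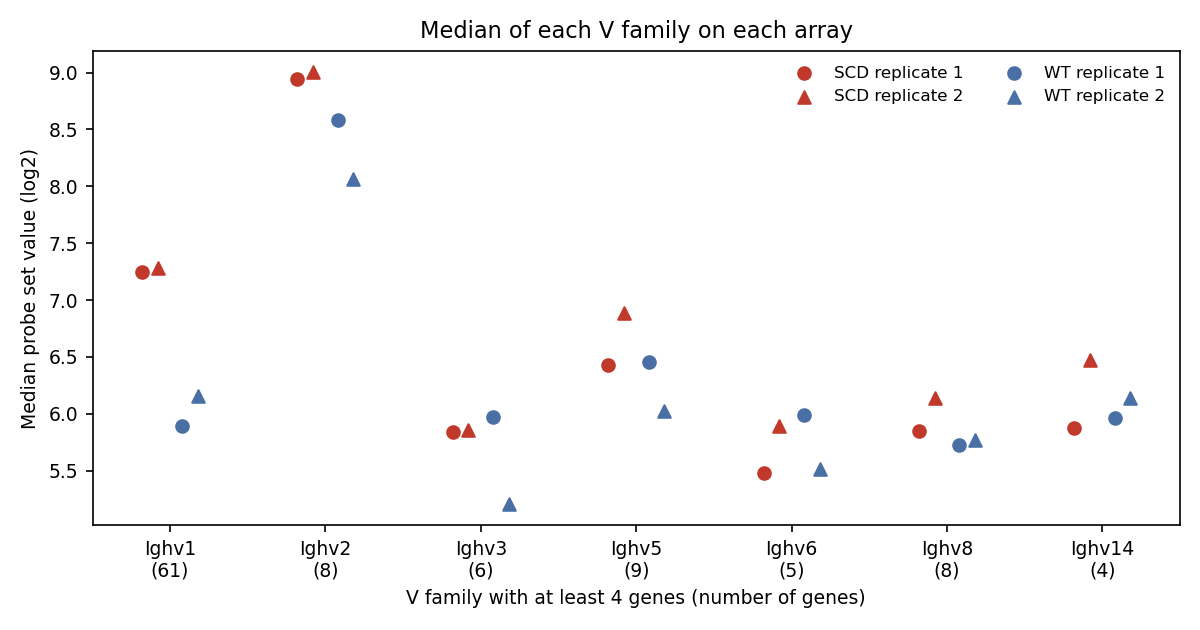
Median probe set value (log2, vertical axis) of each V family with at least 4 genes (horizontal axis) on each array, red for SCD and blue for WT, circles for replicate 1 and triangles for replicate 2. The SCD arrays lie above the WT arrays by more than the replicate gap in Ighv1 (7.25 and 7.28, against 5.89 and 6.15). They also lie above in Ighv2 (8.94 and 9.002, against 8.58 and 8.06) and Ighv8 (5.85 and 6.14, against 5.72 and 5.77), and the groups overlap in Ighv3, Ighv5, Ighv6 and Ighv14.

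Ighv genes outside the 113 are described here by value alone. The 4 genes measured under an older symbol had differences of 0.64 (Ighv1-13), 0.89 (Ighv1-74), 0.28 (Ighv5-8) and 1.30 (Ighv7-3), and 0 of 4 passed in limma, with 3 of 4 at an unadjusted p under 0.05. Of 8 probe sets that named an Ighv gene with other genes, the 5 shared by Ighv genes only had differences between 0.02 and 0.57. The probe set shared by Ighv14-2, Igha, Ighd, Ighg2c and J segments read 10.94 and 11.02 in SCD lung, against 9.19 and 9.45 in WT lung (1.66). Those shared with Ighm lay at -0.08 (Ighv2-6) and 0.385 (Ighv2-7). Which of the named genes gave these values was not tested. By RefSeq type, 3 of the 113 were pseudogenes: beside Ighv1-2, these were Ighv2-1 at -0.37 and Ighv1-30 at 0.81, neither of which passed.

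Kappa light chain V segments, which pair with heavy chains in most mouse antibodies, were also higher. Of 86 Igkv genes, 28 rose and 0 fell, with a median difference of 0.89. Igkv4-59 read 10.78 and 10.74 in SCD lung, against 8.35 and 8.50 in WT lung (2.33 ± 0.10; adjusted p = 0.00301), and Igkv8-30 rose by 2.57 ± 0.11. V segments of the T cell receptor, which are built by the same joining machinery in T cells, did not show such medians. Of 88 Trav genes, Trav12-2 rose (1.34 ± 0.21; adjusted p = 0.0461) and 0 fell, with a median of -0.12. Of 21 Trbv genes, 0 passed in limma (1 higher and 2 lower at an unadjusted p under 0.05), with a median of -0.02. Differences between these sets were not tested.

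Of the heavy chain constant genes, 4 were measured alone. Ighg2b, the IgG2b heavy chain, read 9.74 and 9.77 in SCD lung, against 6.55 and 6.95 in WT lung (3.01 ± 0.16; adjusted p = 0.00434). Ighm, the IgM heavy chain, read 13.32 and 13.42 in SCD lung, against 12.54 and 12.65 in WT lung (0.78 ± 0.08; adjusted p = 0.0154). Ighg1 (0.40 ± 0.11) and Ighe (0.06 ± 0.13) did not pass. Jchain, which joins secreted IgM and IgA into polymers, read 10.01 and 9.90 in SCD lung, against 6.57 and 6.74 in WT lung (3.30 ± 0.11; adjusted p = 0.00233). The increases of Ighg2b and Jchain were thus larger than those of the heavy chain V segments other than Ighv1-9, though sizes on different probe sets are not on a common scale.

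Some other genes of antibody secretion passed, while none of the B cell markers did. In the list of antibody secretion and plasma cell genes, Jchain, Creld2 (1.36 ± 0.15) and Xbp1, a transcription factor of secretory cells (0.71 ± 0.08), rose. That was 3 of 20 genes, where 2.46% of all genes rose, while 0 fell and 17 did not pass. The list median was 0.25, and its mean value was 7.74 and 7.74 on the SCD arrays, against 7.29 and 7.34 on the WT arrays. At an unadjusted p under 0.05, 7 were higher and 0 lower, Ell2 at 0.37 ± 0.09 among the 7. Over all 30701 genes, 3262 were higher and 1864 lower. Both SCD arrays lay above both WT arrays for 14 of 20 and below both for 3, where 25.3% of all genes lay above and 22.5% below. The difference was positive for 17 of the 20 and negative for 3. Of 19 B cell markers, 0 passed in limma (0 higher and 5 lower at an unadjusted p under 0.05), with a median of -0.08. For 8 of the 19, both SCD arrays lay below both WT arrays, against 22.5% of all genes. Their mean value was 7.06 and 7.03 on the SCD arrays, against 7.11 and 7.22 on the WT arrays. Fcer2a, the low-affinity IgE receptor of mature B cells, read 6.24 and 6.37 in SCD lung, against 7.15 and 6.96 in WT lung (-0.75 ± 0.12; adjusted p = 0.0525), and Fcrl1 lay at -0.66 ± 0.11 (adjusted p = 0.052). Cd79b, a signalling chain of the B cell receptor, lay at -0.35 ± 0.11 and the transcription factor gene Ebf1 at -0.36 ± 0.11, and 12 of the 19 differences were negative. The part of B cell or plasma cell numbers in the V segment values was not tested.

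Among genes of antibody diversification and follicles, Cxcl13, the chemokine that draws B cells into follicles, rose by 1.78 ± 0.13 (adjusted p = 0.00781), and 10 of 11 genes of that list did not pass, Bcl6 (0.46 ± 0.13) and Mki67 (0.44 ± 0.10) among them. The 6 measured genes of V(D)J recombination had a median difference of -0.08, and 0 passed in limma or at an unadjusted p under 0.05; Dntt lay at -0.37 ± 0.15. Of 4 genes of the surrogate light chain group (Vpreb1, Vpreb2, Vpreb3 and Igll1), 0 passed in limma and 1 was higher at an unadjusted p under 0.05, Vpreb3 at 1.41 ± 0.44 (adjusted p = 0.21). Of 10 receptors for antibodies, Pigr (0.91 ± 0.13), which carries polymeric antibody across epithelium, Fcamr (0.99 ± 0.11) and Fcgr2b (0.74 ± 0.12) rose and 7 did not pass. T cell markers rose in 2 of 7 cases, Cd3d at 1.18 ± 0.14 and Cd3e at 0.77 ± 0.11, with list means of 7.41 and 7.43 on the SCD arrays, against 6.97 and 7.06 on the WT arrays. Of 8 whole lung markers, 7 did not pass, the surfactant gene Sftpb (16.71 and 16.73 in SCD lung, against 16.76 and 16.85 in WT lung) among them. The endothelial cadherin gene Cdh5 fell, with 14.83 and 14.86 in SCD lung, against 15.24 and 15.40 in WT lung (-0.47 ± 0.08; adjusted p = 0.0491).

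**Figure D5:**
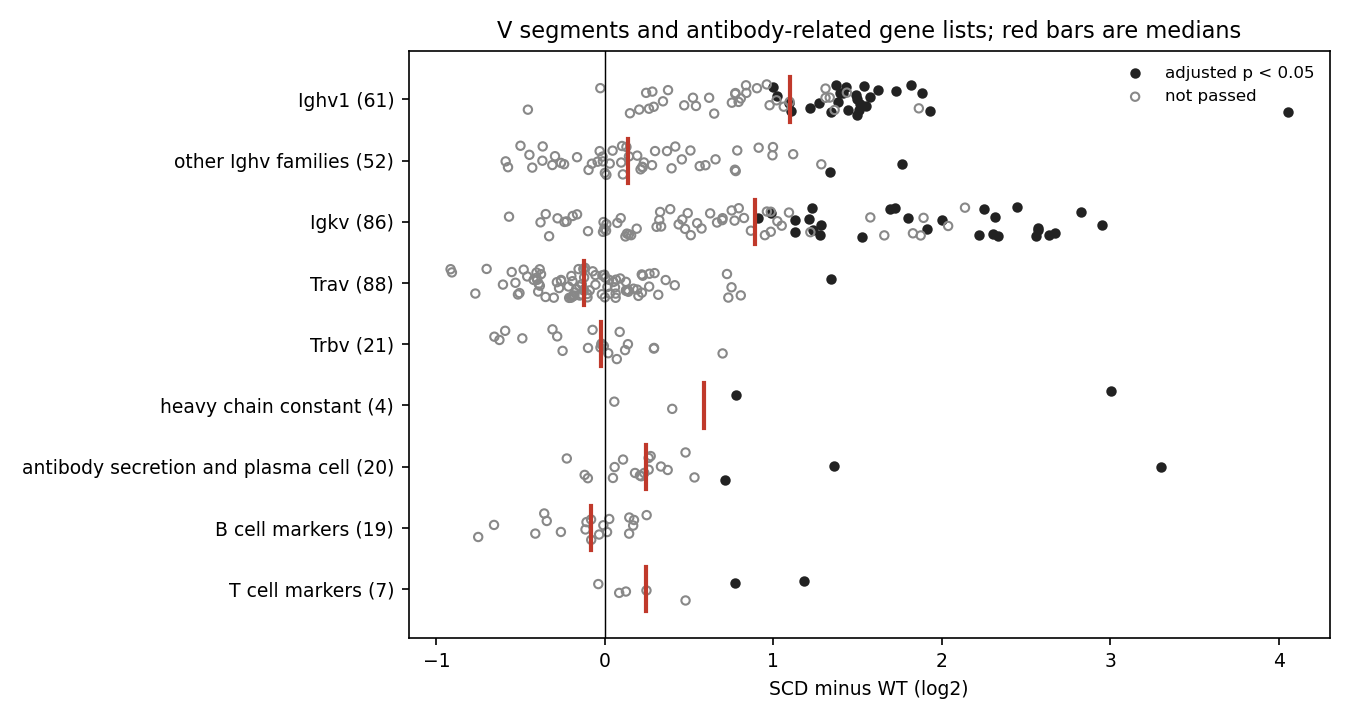
SCD minus WT difference (log2, horizontal axis) of each gene in the heavy chain V segments and the comparison lists (vertical axis, number of genes in brackets). Filled points passed an adjusted p of 0.05 in limma, open points did not, and red bars are list medians, which are 1.10 for Ighv1, 0.14 for other Ighv families and 0.89 for Igkv.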

How the data were processed

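Per the labels' protocols, RNA of whole lung was isolated in TRIzol, and a 3' in vitro transcription kit with biotin label prepared it for the arrays. The deposited values are expression values on a log2 scale, with 1 value for a probe set on each array; the log2 scale was read from the values, which run from 1.72 to 19.93. Affymetrix Expression Console, Partek and RMA are named, without versions, roles or order, per the submitters' processing notes. Array annotation paired 31258 probe sets with 1 gene, after symbols were updated through RefSeq's GRCm38.p6 gene table. A gene's brightest probe set was kept, which gave 30701 genes. RefSeq was also used for gene types and for the order of genes in the locus. No sequence of a V segment or its promoter was in the tables used here.

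Groups came from the sample titles. SCD was compared with WT in limma 3.58.1 (R 4.3.3; lmFit and eBayes with an intensity trend, group as the only term, two-sided), with Benjamini-Hochberg adjustment over all 30701 genes. Differences are SCD minus WT ± the moderated SE. The fit was run on simulated data with independent genes and variances drawn from its own model. That run checks the code and cannot show whether the Ighv calls hold. Dim probe sets were kept, and the number of arrays limits the precision.

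Members, gene lists and the rule for named genes were chosen with earlier results of these data known. The rule named the 12 largest differences past the threshold, the 6 brightest probe sets, the brightest of each family, the 5 lowest differences and the 5 largest gaps between SCD arrays. It also named the heavy chain constant genes, Jchain and up to 4 genes with the smallest p of each list; some are given by count only. Replicate numbers were not used to pair the arrays, except in the replicate block setting below. The correlation over genes of replicate 1 minus replicate 2 in SCD with that in WT was -0.002. This value cannot show whether the arrays were paired, since it is taken over all genes.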

Additional observations from a re-analysis of the deposited data

How the results depend on the processing

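Of the 29 Ighv genes that rose, 26 kept their call under each of 12 other settings in which they were tested; Ighv1-50, Ighv1-70 and Ighv4-1 lost it when the intensity trend was dropped and when the exon control shift was removed, and Ighv1-50 also with robust eBayes. None of the 12 settings left out an array. The count ran from 26 to 41 over them, with 0 lower genes in each. With the replicate block it was 41, of which 29 were among those reported; the block brought in Ighv2-9-1 (adjusted p = 0.0209) and the shared values of Ighv1-62-2 and Ighv1-71 (adjusted p = 0.04). With protein-coding, V segment and C region genes only, 41 rose. Leaving out each array in turn gave 0 to 27 higher genes, 0 to 0 lower genes and medians of 0.58 to 0.65. Fits without an SCD array take the spread from the WT arrays. The median difference over the Ighv genes was 0.78 without the dimmest 25% of genes, which left 100 Ighv genes, 0.99 without the dimmest 50%, which left 76, and 0.46 with the exon control shift removed. Counting genes with shared values once gave 29 higher genes and a median of 0.65, and adding the 4 genes under older symbols gave 29 and 0.66; both were chosen after seeing the data.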
